A study of Mus musculus with 24 samples.

Results

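The comparison described here set Zbtb16-null against wild-type (WT) undifferentiated spermatogonia (uSPG), taken as the THY1+ cells of mouse testes at postnatal day 7. It rested on 6 of the 24 RNA-seq libraries of the study, 3 labelled null and 3 labelled WT, chosen by those labels alone. Null mice were homozygous for the luxoid allele of Zbtb16 (Zbtb16 lu/lu) on a C57BL/6J background. The controls were labelled WT, and the methods of the study state that WT and heterozygous (Zbtb16 +/lu) littermates served as controls, so a WT library could not be told apart from a heterozygous one by its label. Testes of 3 mice were pooled for each isolation and the cells were captured on magnetic beads carrying antibodies to THY1, a surface protein of uSPG that some somatic cells also carry. The study also made 3 null and 3 WT libraries of differentiating spermatogonia (dSPG), captured on beads against KIT. They were fitted together with the THY1+ libraries, so that they share the estimates of spread and block, and their own changes are set beside the THY1+ results. With the 6 THY1+ libraries fitted alone the calls given below numbered 1648 in place of 1980. The mutation was carried by every cell of the mouse, somatic cells included.

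ZBTB16, also named PLZF, is a BTB zinc finger transcription factor that can both repress and activate its targets. In the testis it marks uSPG, the pool that holds the spermatogonial stem cells and the progenitors derived from them, and mice without it lose their germ cells with age. The stem cells depend on GDNF and FGF signals from somatic neighbours, while retinoic acid drives progenitors to become KIT+ dSPG and later to enter meiosis.

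Zbtb16 mRNA was lower in every null library and was not absent. It stood at 55.7, 58.7 and 42 FPKM in WT and 17.5, 18.2 and 15.6 FPKM in null, a log2 change of -1.59 ± 0.13 (SE; limma adjusted p = 2.42e-04), and it fell to a like extent in KIT+ cells (-1.45 ± 0.13, limma adjusted p = 0.00268). FPKM scales the reads counted for a gene by its transcript length and by the mapped reads of the library, and changes are null minus WT on the log2(FPKM + 0.1) scale, which understates the change of low genes. Thy1 itself was measured at 3.29, 4.41 and 4.14 FPKM in WT and 3.48, 4.67 and 4.23 FPKM in null, so the groups overlapped, and Kit was at 13.8, 21.1 and 14.6 FPKM in WT and 16, 14 and 16.6 FPKM in null, which also overlapped. The THY1+ libraries held an estimated 27.5 to 31.29 M reads each (M, 1e6), 16173 to 16585 genes reached 1 FPKM, and 2 libraries of a group correlated across genes at 0.9774 to 0.9864 on the log2 scale.

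Of 22374 genes tested, 976 rose and 1004 fell in null THY1+ uSPG, by at least 1.5-fold at an adjusted p of at most 0.05 (limma, replicate number as a block). These counts are 4.36% and 4.49% of the genes tested, 8.85% in all, and form the background against which the gene lists below were read. A gene is said to rise or fall only where it passed both thresholds. Of the genes that rose, 607 also passed without the block and 441 passed in all 6 fits that left out a THY1+ library. Of the genes that fell, 283 passed without the block and 180 passed in all 6. When each library was centred on its median, the split moved from 976 against 1004 to 1187 that rose against 799 that fell. The 1980 calls were 1083 without WT replicate 1, 939 without null replicate 1 and 947 without null replicate 3.

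The genes that rose moved further than the genes that fell. At least 2-fold changes were met by 331 of the genes that rose and 161 of those that fell, and at least 4-fold changes by 26 and 4. A mean of 1 FPKM in the higher group was reached by 659 and 765. The 3 null and 3 WT values did not overlap for 929 of the genes that rose and 805 of those that fell, against 29.5% of all genes tested. The calls were chosen on these same values, so this separation is no independent support for them. Protein-coding genes made up 743 and 774 of the calls, while 66 genes that rose and 30 that fell were long intergenic non-coding RNAs.

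**Figure D1:**
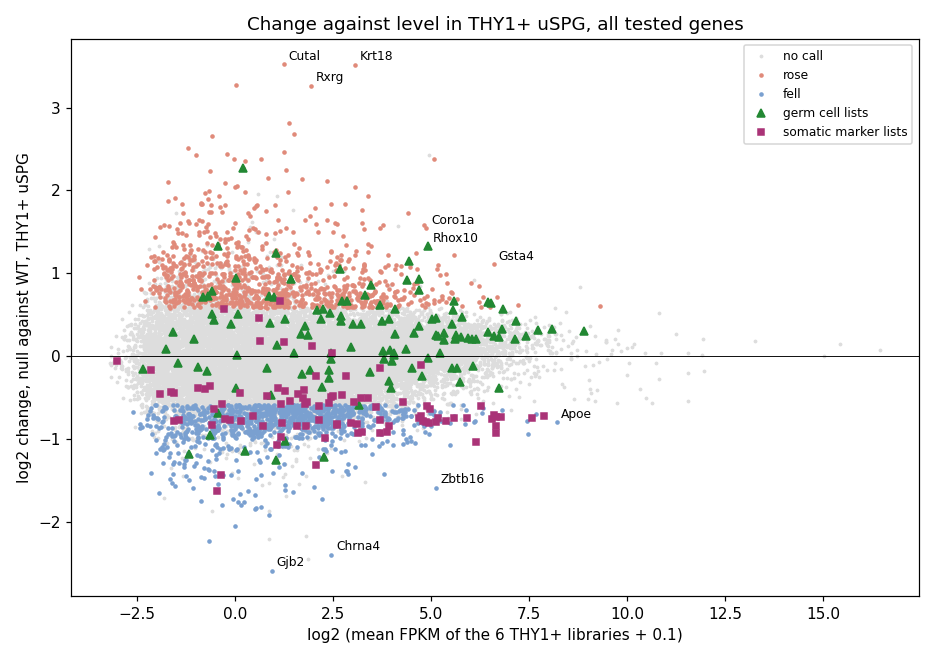
Log2 change in null against WT THY1+ uSPG (vertical axis) by level (horizontal axis, log2 of the mean FPKM of the 6 THY1+ libraries plus 0.1), 1 point per gene tested. Genes that rose (976) and fell (1004) are coloured, triangles are germ cell list genes and squares somatic marker genes. Few of them stand at the right: of the 340 genes at 100 FPKM or more in WT, 2 rose and 6 fell.

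Markers of the somatic cells of the testis were lower in null THY1+ libraries and are kept apart from germ cell genes here. Of 92 somatic marker genes tested in 8 lists, none rose, 26 fell and 85 had a negative change, with a median log2 change of -0.71 against -0.03 over all genes. Without the replicate block 3 of the 92 fell, and with the block 10 fell without WT replicate 1, 6 without null replicate 1 and 5 without null replicate 3. In KIT+ cells the same 92 genes had a median of 0.42, and 3 of them rose. In such bulk samples, fewer cells of a type and less RNA per cell cannot be told apart.

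Macrophage markers were the most abundant of these. Their summed level over 16 genes was 1399.4, 1418.5 and 1232.1 FPKM in WT and 769.9, 1078.2 and 575.2 FPKM in null THY1+ libraries, against 9.0 to 21.8 FPKM in the 6 KIT+ libraries. Every null library lay below every WT library, and null replicate 2 lay nearest to WT. Mrc1, a mannose receptor of tissue macrophages, measured 146, 133 and 111 FPKM in WT and 67.5, 98.5 and 47.1 FPKM in null (log2 change -0.93 ± 0.22 (SE), limma adjusted p = 0.021), a call made only with the block. Cd68, a lysosomal protein of macrophages, measured 35.2, 38.9 and 35.5 FPKM in WT and 19.5, 26.8 and 17.7 FPKM in null (-0.79 ± 0.16 (SE), limma adjusted p = 0.0109) and passed with and without the block. F13a1, Csf1r and Fcer1g also fell, F13a1 and Csf1r with the block only. The F13a1 call was lost in every fit that left out a THY1+ library, and the Csf1r groups overlapped.

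Sertoli and Leydig markers fell in 8 of 17 and 6 of 10 cases, all of them with the block only. Cldn11, a tight junction protein of Sertoli cells, measured 5.06, 1.97 and 1.44 FPKM in WT and 1.54, 1.24 and 0.693 FPKM in null (log2 change -1.08 ± 0.20 (SE), limma adjusted p = 0.00921), and Cyp17a1, a steroid-synthesis enzyme of Leydig cells, 19.1, 24.7 and 13.4 FPKM in WT and 8.67, 13.9 and 7.55 FPKM in null (-0.92 ± 0.18 (SE), limma adjusted p = 0.0105). For both genes the groups overlapped. The summed Leydig level was 97.6 to 139.9 FPKM in WT and 60.2 to 92.8 FPKM in null THY1+ libraries, far under the 1323.2 to 3428.0 FPKM of the KIT+ libraries. Of the remaining lists, 3 of 15 peritubular and stromal genes fell (Lum, Igf1, Acta2), 3 of 12 lymphoid genes (Il7r, Cd4, Cd8a), 1 of 7 antigen presentation genes (Ciita), and none of 10 endothelial or 5 red blood cell genes, which had medians of -0.44 and -0.78. Il7r, the receptor of interleukin 7, was at 0.932, 0.965 and 1.21 FPKM in WT and 0.277, 0.362 and 0.317 FPKM in null and passed in all 6 fits without a library. Genes of mast cells, chosen after their values were seen, also fell: the proteases Cma1, Mcpt4 and Cpa3 had log2 changes of -1.39, -1.42 and -1.39, and Mcpt4 measured 7.78, 11.9 and 11.8 FPKM in WT and 4.48, 2.31 and 5.16 FPKM in null.

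**Figure D2:**
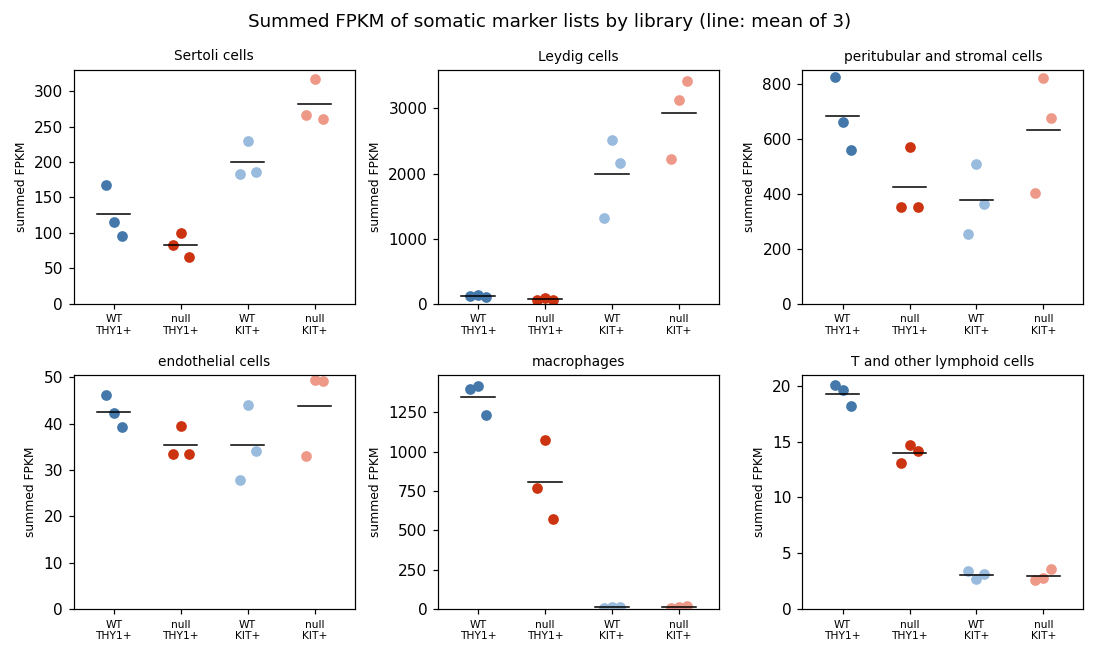
Summed FPKM of 6 somatic marker lists in each of the 12 Zbtb16 libraries (points; line, mean of 3), on linear axes from 0. Macrophage and lymphoid sums were lower in null than in WT THY1+ libraries. In KIT+ libraries macrophage sums were near 0 and lymphoid sums were 2.6 to 3.6 FPKM, against 13.1 to 20.1 FPKM in THY1+ libraries, while Leydig sums were far higher in KIT+ than in THY1+ libraries.

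In the fit with the block, germ cell genes were higher in null more often than lower, while the markers of the stem cell pool split. Of 121 germ cell genes in 7 lists, 22 rose and 6 fell, 87 had a positive change and the median was 0.26, against -0.19 in KIT+ cells. The calls became 9 that rose and 5 that fell without the block, 13 and 4 at a pseudocount of 1, and 14 and 6 without null replicate 2. The summed level of these genes was 3437.0, 3445.1 and 3732.9 FPKM in WT and 4364.4, 3998.4 and 4504.6 FPKM in null, so that the groups did not overlap. Markers of germ cells in general give the size of that shift. Ddx4, an RNA helicase of all germ cells, measured 178, 188 and 202 FPKM in WT and 239, 214 and 256 FPKM in null (log2 change 0.32 ± 0.09 (SE)), and Dazl, an RNA-binding protein, 403, 389.8 and 489 FPKM in WT and 568, 409 and 621 FPKM in null (0.30 ± 0.11 (SE)). Neither passed both thresholds, and the groups were apart for Ddx4 and overlapped for Dazl. The somatic sums moved against these lists in the same libraries, and their part in each germ cell result was not tested.

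All 6 germ cell genes that fell belonged to the 25 markers of uSPG, and the count was 6 in each fit that left out a THY1+ library. T (brachyury), a T-box factor, measured 3.37, 2.6 and 2.34 FPKM in WT and 0.951, 1.52 and 0.892 FPKM in null (log2 change -1.25 ± 0.21 (SE), limma adjusted p = 0.00568). Neurog3, a bHLH factor of progenitors, measured 7.85, 6.79 and 5.22 FPKM in WT and 3.07, 2.64 and 2.55 FPKM in null (-1.22 ± 0.14 (SE), limma adjusted p = 0.00142). Both were lower in every null library than in any WT library, and both also fell in KIT+ cells, with log2 changes of -0.93 and -1.19. Eomes, the T-box factor of a subset of GFRA1+ cells, stood at 1.96, 1.48 and 1.21 FPKM in WT and 0.598, 0.725 and 0.576 FPKM in null (-1.15 ± 0.17 (SE), limma adjusted p = 0.00336). Shisa6, a WNT inhibitor marking some stem cells, stood at 0.566, 0.581 and 0.411 FPKM in WT and 0.162, 0.224 and 0.132 FPKM in null (-1.19 ± 0.15 (SE), limma adjusted p = 0.00169). Neither pair of groups overlapped, and Shisa6 had a KIT+ change of 0.07. The homeobox genes Lhx1, a GDNF-responsive factor, and Pax7, a marker of rare stem cells, fell by 1.02 and 0.96 on the log2 scale. T, Eomes, Neurog3, Lhx1 and several genes below (Krt18, Sycp3, Cth, Rhox10, Fgfr1, Ccnd1, Jund, Gsta3, Nr5a2, Tdrd5, D030018L15Rik, Utf1, Pou5f1) are ones the study itself drew from these libraries. Their place in a list is therefore not independent evidence of a direction.

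The GDNF receptor genes did not pass, whereas T, which the study describes as regulated by GDNF, fell as given above, as did Lhx1. Gfra1, the GDNF co-receptor, measured 31.6, 35 and 32.4 FPKM in WT and 35.3, 44.8 and 37.1 FPKM in null (0.24 ± 0.16 (SE), limma adjusted p = 0.315), and its partner receptor Ret measured 30.2, 35.1 and 26.2 FPKM in WT and 28.1, 38.4 and 24.2 FPKM in null (-0.03 ± 0.17 (SE), limma adjusted p = 0.917). Gfra1 was higher in every null library than in any WT library and Ret overlapped. Id4, an inhibitor of bHLH factors in stem cells, was at 14.8, 12.2 and 13.7 FPKM in WT and 19.6, 21.4 and 19.1 FPKM in null (0.56 ± 0.19 (SE), limma adjusted p = 0.0646), a change that passed in KIT+ cells (0.89). The 2 uSPG markers that rose were Utf1, a chromatin-bound protein, at 1.06, 1.38 and 0.936 FPKM in WT and 3.04, 2.96 and 2.35 FPKM in null (1.24 ± 0.24 (SE), limma adjusted p = 0.0105), and Sox3, at 7.7, 5.85 and 3.14 FPKM in WT and 9.77, 11.5 and 5.1 FPKM in null (0.66 ± 0.20 (SE), limma adjusted p = 0.0482). The Sox3 groups overlapped, and the call was lost without the block and in 5 of the 6 fits without a library.

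None of the 8 dSPG markers passed in THY1+ cells. Stra8, which retinoic acid induces before meiosis, measured 44.1, 48.7 and 66 FPKM in WT and 44, 39.8 and 60.3 FPKM in null, and its log2 change of -0.14 ± 0.14 (SE; limma adjusted p = 0.497) stood beside a change of -0.90 in KIT+ cells (limma adjusted p = 0.0225).

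Meiotic genes rose in 6 of 30 cases and none fell, with a median of 0.38. No member passed without the block, and 3 to 7 rose in the fits that left out a THY1+ library. Sycp3, which builds the axis of meiotic chromosomes, measured 73.2, 59.9 and 83.7 FPKM in WT and 127, 88.2 and 124 FPKM in null (log2 change 0.64 ± 0.12 (SE), limma adjusted p = 0.00831). Hormad1, which monitors synapsis, measured 13.8, 13.3 and 16 FPKM in WT and 29.7, 23.7 and 28.6 FPKM in null (0.92 ± 0.19 (SE), limma adjusted p = 0.0136). The null values lay above all WT values for both, with null replicate 2 the lowest of the null libraries for Sycp3. Spata22, a recombination factor, Syce3 and Tex12, parts of the synaptonemal complex, and Meikin, a kinetochore protein listed under an older symbol (4930404A10Rik), were the other 4. In KIT+ cells the list had a median of -0.29. Sycp1, the transverse filament protein, measured 92.6, 88.3 and 117 FPKM in WT and 127, 104 and 143 FPKM in null and did not pass.

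The piRNA pathway, which silences transposons in germ cells, held 5 of 20 genes that rose, 4 of them also without the block, and 5 to 6 rose whichever THY1+ library was left out. Piwil1, a PIWI protein known from later germ cells, measured 4.37, 4.0 and 3.85 FPKM in WT and 8.52, 9.55 and 7.61 FPKM in null (1.05 ± 0.10 (SE), limma adjusted p = 5.35e-04). Piwil4, the nuclear PIWI protein of fetal and neonatal germ cells, measured 8.82, 7.35 and 7.14 FPKM in WT and 15.8, 14.1 and 12.6 FPKM in null (0.86 ± 0.10 (SE), limma adjusted p = 0.00152). Tdrd5, a Tudor protein of the germ granule, measured 17.9, 18.6 and 16.7 FPKM in WT and 36.9, 34.7 and 30.1 FPKM in null (0.93 ± 0.12 (SE), limma adjusted p = 0.00209). Every null value lay above every WT value for these 3 genes, and none of them passed in KIT+ cells. Morc1, which helps to silence transposons, and Tdrd6 were the other members that rose, while Piwil2 and the rest did not pass.

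Genes known from pluripotent and early germ cells rose in 6 of 15 cases, 2 of them without the block and 2 to 5 in the fits without a THY1+ library. Dppa3, an early germ cell and oocyte protein, stood at 0.372, 0.187 and 0.286 FPKM in WT and 2.75, 1.14 and 1.54 FPKM in null, a log2 change of 2.26 ± 0.17 (SE; limma adjusted p = 1.72e-04) beside a KIT+ change of 0.09. Dppa4, its chromatin-bound namesake, stood at 11.9, 12.3 and 15.8 FPKM in WT and 28.6, 29.7 and 29.7 FPKM in null (1.14 ± 0.11 (SE), limma adjusted p = 5.06e-04). Both were clear of the WT range. Dppa2, Tfap2c, Sox2 and Pou5f1 were called with the block only. Dppa2 and Dppa4 lie next to each other and to Morc1 on chromosome 16, and these 3 genes rose together.

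In the Rhox cluster of reproductive homeobox genes on the X chromosome, 3 of 16 genes rose. Rhox10, which acts in the formation of stem cells from prospermatogonia, measured 18.7, 12 and 21.9 FPKM in WT and 47.9, 33.9 and 47.8 FPKM in null (1.32 ± 0.08 (SE), limma adjusted p = 6.63e-05) and had a KIT+ change of 0.20. Rhox1 rose by a log2 change of 0.67. Rhox7b rose by 0.73 with the block only, and it has close copies in the cluster with which its reads may be shared.

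**Figure D3:**
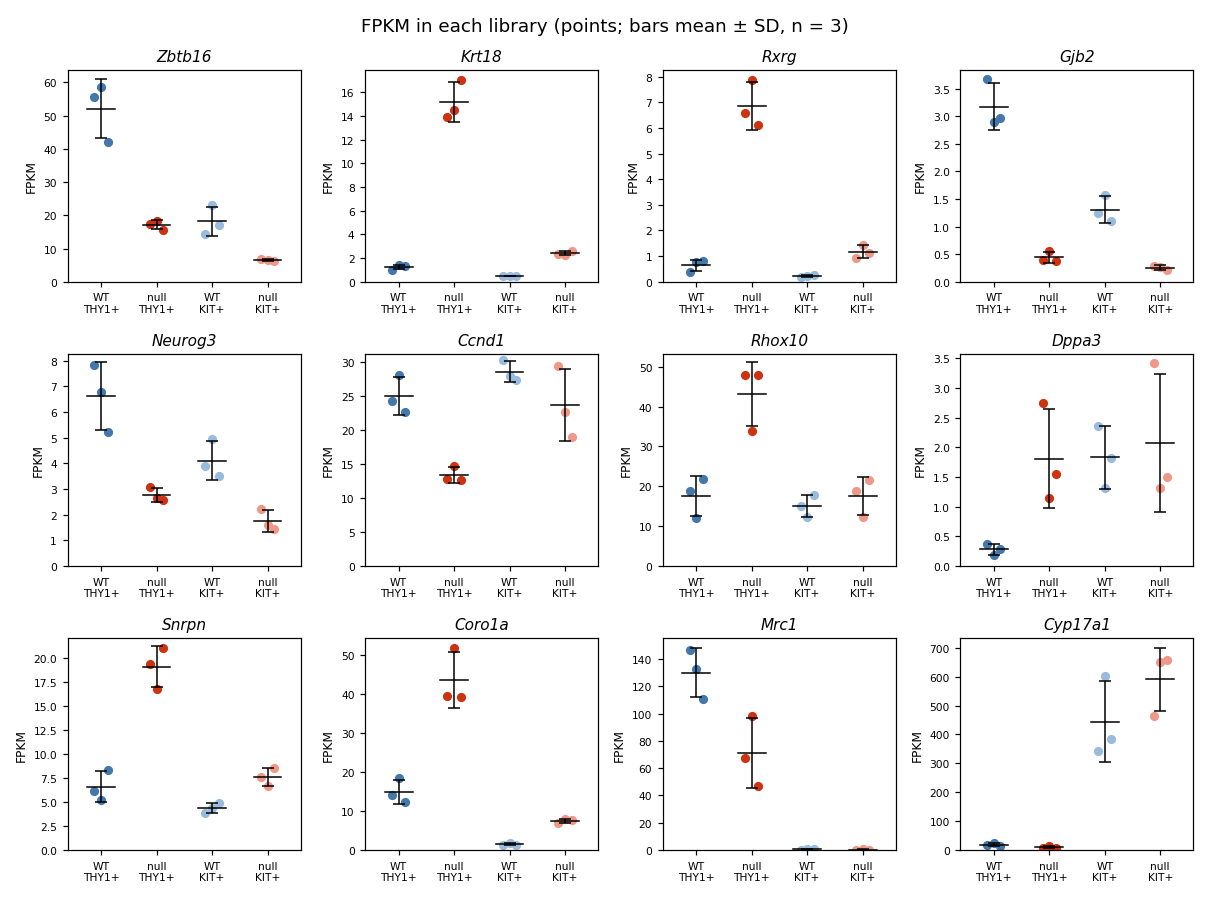
FPKM of named genes in each of the 12 Zbtb16 libraries (points; bars, mean ± SD, n = 3), each panel on its own linear axis from 0. Krt18, Rhox10 and Dppa3 were higher in all null THY1+ libraries than in any WT THY1+ library, while Neurog3 and Mrc1 were lower.

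Keratins, the intermediate filament proteins of epithelia, held 8 genes that rose and none that fell among 15, with a median of 0.74, and 7 passed without the block. At a pseudocount of 1, which weighs such low levels less, 4 rose and the median was 0.31, about that of the meiotic (0.31) and piRNA (0.32) lists. Leaving out a THY1+ library gave 6 to 8. Krt18 measured 1.02, 1.38 and 1.32 FPKM in WT and 13.9, 14.5 and 17.1 FPKM in null, a log2 change of 3.51 ± 0.12 (SE; limma adjusted p = 2.11e-06), and rose in KIT+ cells too, by 2.08. Its filament partner Krt8 stayed far lower, at 0.184, 0.111 and 0.124 FPKM in WT and 0.531, 0.362 and 0.381 FPKM in null (1.13 ± 0.21 (SE), limma adjusted p = 0.0086). Both were raised in every null library, yet Krt8 never reached 1 FPKM. Krt23, Krt222, Krt24, Krt27, Krt28 and Krt17 rose from mean levels under 2 FPKM, with log2 changes from 0.74 to 1.31.

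Among calls that reached 1 FPKM and whose groups did not overlap, Gjb2, which encodes the gap junction protein connexin 26, fell most. It stood at 3.67, 2.89 and 2.97 FPKM in WT and 0.398, 0.558 and 0.381 FPKM in null (-2.59 ± 0.17 (SE), limma adjusted p = 6.63e-05) with a KIT+ change of -1.98. The bases just upstream of Krt18 and Gjb2 are shown because these 2 genes had among the largest changes in opposite directions and both hold the E-box CACCTG within 250 bases of their start. They were read from the mouse genome build GRCm38.p6 at RefSeq starts, Krt18 at chr15:102027966-102028179 on the plus strand and Gjb2 at chr14:57104703-57104952 on the minus strand. Capitals mark CACCTG or its reverse complement CAGGTG.
Krt18 upstream: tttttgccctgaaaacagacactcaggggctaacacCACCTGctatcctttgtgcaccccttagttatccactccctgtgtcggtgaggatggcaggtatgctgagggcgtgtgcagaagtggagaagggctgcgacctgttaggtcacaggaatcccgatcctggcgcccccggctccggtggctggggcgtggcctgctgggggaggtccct
Gjb2 upstream: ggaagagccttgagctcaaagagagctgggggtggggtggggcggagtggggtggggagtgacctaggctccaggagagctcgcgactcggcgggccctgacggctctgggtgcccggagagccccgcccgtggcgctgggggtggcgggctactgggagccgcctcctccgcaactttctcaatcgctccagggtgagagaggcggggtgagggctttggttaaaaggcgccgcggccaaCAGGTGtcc
CACCTG, searched on both strands, was 1 of 6 motifs searched, and a gene was counted if any of its upstream windows held the motif. By gene, CACCTG stood in 24.3% of the 601 genes that rose and could be matched, 18.6% of the 581 that fell and 19.6% of all 13254 matched genes tested. By window, a different measure, it stood in 17.2% of all 32851 windows. The GC box GGGCGG stood in 42.9%, 50.3% and 57.1% of these genes in the same order, and in 32.7% of windows. By gene, in that order, TATAAA stood in 13.1%, 11.5% and 8.9% and CACGTG in 9.8%, 4.8% and 9.1%. CCAAT stood in 39.3%, 33.4% and 39.2% and TCCCGC in 22.8%, 25.1% and 30.4%. A match describes the letters only.

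Glutathione genes moved in both directions. The list holds the enzymes that make cysteine and glutathione and the transferases that use it to detoxify reactive compounds, and of 32 genes 9 rose and 4 fell, with a median of 0.01, and 6 and 3 passed without the block. Leaving out a THY1+ library gave 6 to 8 that rose and 1 to 7 that fell. Gsta4, which clears lipid peroxidation products, measured 57, 55.1 and 72.1 FPKM in WT and 127, 128 and 140.5 FPKM in null (1.11 ± 0.07 (SE), limma adjusted p = 6.63e-05) and stood among the 10 most abundant genes that rose. Cth, which makes cysteine from cystathionine, measured 1.94, 1.93 and 2.07 FPKM in WT and 4.05, 3.66 and 4.14 FPKM in null (0.96 ± 0.12 (SE), limma adjusted p = 0.00205). Gsta3, an alpha class transferase like Gsta4, went the other way, at 13.6, 14.1 and 19.2 FPKM in WT and 6.15, 6.5 and 7.63 FPKM in null (-1.19 ± 0.18 (SE), limma adjusted p = 0.00393). Gsta3 and Gsta4 thus differed in direction with no overlap of groups in either. Gstt2 and Gsto1 rose in both fractions, by 1.1 and 1.05 in THY1+ and 0.61 and 0.75 in KIT+ cells. Gpx1, the main cytosolic glutathione peroxidase, fell from a WT mean of 97.5 FPKM, by -0.63, with the block only.

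Of 20 retinoid pathway genes, 3 rose and 3 fell. Rxrg, a retinoid X receptor that pairs with retinoic acid and other nuclear receptors, measured 0.39, 0.753 and 0.792 FPKM in WT and 6.57, 7.89 and 6.12 FPKM in null (3.26 ± 0.19 (SE), limma adjusted p = 4.80e-05) and rose in KIT+ cells by 1.95. Aldh1a2, which makes retinoic acid in germ cells, measured 8.54, 7.81 and 6.58 FPKM in WT and 12.3, 13.1 and 12.9 FPKM in null (0.74 ± 0.08 (SE), limma adjusted p = 0.00123). Aldh1a1, a retinal dehydrogenase of Sertoli and Leydig cells, measured 57.8, 40 and 40.5 FPKM in WT and 24.9, 33 and 25.1 FPKM in null (-0.73 ± 0.18 (SE), limma adjusted p = 0.0267). The groups were apart for all 3 genes, and the fall of Aldh1a1 went with the somatic marker sums in the same libraries, whose part in it was not tested. Dhrs3, a retinal reductase, changed by -0.82 and Cyp26c1, a retinoic acid-degrading enzyme, by -1.21, both being calls that fell.

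Calls among developmental transcription factors moved with the fit. In the SOX, FOX, T-box, GATA and DMRT families 5 of 66 rose and 14 fell, with 2 and 2 left without the block. The number that fell was 2 without null replicate 1, 4 without WT replicate 1, 5 without null replicate 3 and 6 without null replicate 2, while 3 to 5 rose in the fits without a THY1+ library. Foxl1, a forkhead factor, measured 0.97, 1.07 and 0.755 FPKM in WT and 0.236, 0.309 and 0.279 FPKM in null (-1.45 ± 0.17 (SE), limma adjusted p = 0.00142) and fell in KIT+ cells too. Tbx4, a limb and lung T-box factor, measured 0.283, 0.343 and 0.3 FPKM in WT and 0.898, 0.854 and 0.742 FPKM in null (1.19 ± 0.18 (SE), limma adjusted p = 0.0038). The groups of both genes were apart at levels under or near 1 FPKM. Of LIM, PAX, POU and sine oculis homeobox factors, 3 of 33 rose and 7 fell, against 2 and 2 without the block and 2 and 1 at a pseudocount of 1. Six4, a sine oculis homeobox factor known from muscle progenitors, rose to a null mean of 10.7 FPKM, by 1.06. Pou3f2 and Lhx2 fell, with log2 changes of -1.18 and -0.86.

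Nuclear receptors and HOX genes were mixed. Nr5a2 (LRH-1), an orphan receptor that supports pluripotency and steroid synthesis genes, measured 5.89, 6.32 and 6.15 FPKM in WT and 13.4, 12.8 and 13.7 FPKM in null (1.11 ± 0.14 (SE), limma adjusted p = 0.00209) and rose in KIT+ cells by 0.74. Rora, a receptor of the RAR-related orphan group, also rose, while Nr4a1, Nr4a2 and Nr2e1 fell. Among 24 HOX genes, which pattern the body axis, 3 rose and 4 fell. Without the block 1 rose and 1 fell, and leaving out a THY1+ library gave 0 to 2 that rose and 0 to 8 that fell. The neighbours Hoxb6 and Hoxb7 went in opposite directions: Hoxb6 measured 0.8, 0.786 and 0.584 FPKM in WT and 0.308, 0.14 and 0.0474 FPKM in null (-1.75 ± 0.41 (SE), limma adjusted p = 0.0208) and Hoxb7 1.48, 2.44 and 1.51 FPKM in WT and 4.16, 3.46 and 2.31 FPKM in null (0.83 ± 0.19 (SE), limma adjusted p = 0.0188). Hoxb6 groups were apart and the call held in 2 of the 6 fits without a THY1+ library, while Hoxb7 groups overlapped and the call was lost without the block. Of 43 BTB zinc finger genes, the family of ZBTB16, only Zbtb16 itself and Zbtb4 passed, both downward and Zbtb4 with the block only. Of 348 numbered zinc finger genes, 5 rose and 5 fell, a share of calls below the background, and 3 rose and none fell without the block. Of 37 Polycomb, HDAC and corepressor genes, Pcgf6, a subunit of a variant Polycomb complex that represses germline genes, rose from 29.5 to 48.4 FPKM on average (0.72) and Pcgf2 fell. None of 9 DNA methyltransferase and TET genes passed.

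The FGF, BMP and WNT lists held 10.5%, 11.5% and 9.3% of genes called, near the background of 8.85%, so no direction is read from them. Without the block 1 BMP gene rose, 2 WNT genes fell and no FGF gene passed. Fgfr1, a receptor for FGF ligands in uSPG and in somatic cells, measured 6.62, 7.99 and 4.68 FPKM in WT and 3.2, 5.07 and 2.68 FPKM in null (-0.82 ± 0.12 (SE), limma adjusted p = 0.00346). The groups overlapped and the call needed the block. Etv1 was the only other call among 19 genes of FGF and ERK feedback. Of 26 BMP, activin and ID genes, Smad9, a BMP-responsive SMAD, rose and the inhibitory Smad6 and Id2 fell. Of 43 WNT genes, the ligands Wnt10b and Wnt7b and the factor Tcf7l1 fell and the inhibitor Dkk2 rose. None of 17 Notch genes passed.

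Chemokines and their receptors, which guide leukocytes, held 14 genes that fell among 41 and none that rose, with a median of -0.55. Without the block 6 fell, and 5 to 8 fell in the fits without a THY1+ library, fewest without null replicate 3. Ccl24 (eotaxin-2) measured 7.63, 4.75 and 5.44 FPKM in WT and 2.56, 2.25 and 1.14 FPKM in null (-1.58 ± 0.21 (SE), limma adjusted p = 0.00223), and the receptor gene Ccr8 1.75, 1.58 and 1.68 FPKM in WT and 0.461, 0.974 and 0.737 FPKM in null (-1.15 ± 0.23 (SE), limma adjusted p = 0.0117). Both were lower in all null libraries, in which macrophage and lymphoid marker sums were lower too. Ccl2 and Ccl7, ligands of monocyte receptors, fell with the block only, with log2 changes of -1.04 and -1.02.

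Axon guidance genes, which also act in vessels and stroma, held 8 genes that fell and 1 that rose among 67. The share called was 13.4%, against the background of 8.85%. The change was negative for 50 genes and positive for 17, with a median of -0.24. Without the block 2 fell and 1 rose, and 1 to 8 fell in the fits without a THY1+ library. Unc5a, a netrin receptor, measured 2.56, 2.63 and 1.84 FPKM in WT and 0.988, 1.38 and 0.59 FPKM in null (-1.22 ± 0.19 (SE), limma adjusted p = 0.00449), and Sema3e, a semaphorin ligand, rose to 0.707, 0.436 and 0.393 FPKM from 0.0657, 0.0615 and 0.0757 FPKM (1.83 ± 0.19 (SE), limma adjusted p = 7.70e-04). Both passed with and without the block. Nrp1 and Nrp2, the neuropilin co-receptors, fell with the block only and with overlapping groups.

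Immediate early genes, which respond within minutes to signals or cell handling, fell in 6 of 25 cases, with a median of -0.58 against 0.57 in KIT+ cells. Jund measured 39.4, 23.6 and 23.7 FPKM in WT and 15.3, 19.1 and 9.75 FPKM in null (-0.98 ± 0.22 (SE), limma adjusted p = 0.0183), and Fos and Fosb, which head the list, had changes of -0.57 and -0.74 without a call. The Jund groups did not overlap. Of the 6 calls, Jund alone passed without the block as well, and it held in 3 of the 6 fits without a THY1+ library. No gene of the list fell without null replicate 1, 1 without null replicate 3, and 2 without WT replicate 1 or WT replicate 3.

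Among extracellular matrix genes, 2 of 43 collagens rose and 1 fell. Of 39 laminins and integrins 2 rose and 3 fell, and of 37 matrix proteases and inhibitors 6 fell. The shares called were 7.0%, 12.8% and 16.2% in that order, against the background of 8.85%. Changes of either size were negative for 35, 32 and 31 genes and positive for 8, 7 and 6, with medians of -0.44, -0.26 and -0.31. None of these proteases and inhibitors, and none of the laminins and integrins, fell without the block, and leaving out a THY1+ library gave 1 to 7 and 2 to 5. Lama3, a laminin chain of epithelial basement membranes, measured 4.49, 5.12 and 5.19 FPKM in WT and 7.86, 7.73 and 8.87 FPKM in null (0.71 ± 0.09 (SE), limma adjusted p = 0.00156) and was higher in every null library than in any WT library.

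Of the growth and cell cycle genes few passed, a share below the background of 8.85%. Ccnd1, cyclin D1, was the only 1 of 20 G1 genes to pass, at 24.3, 28.1 and 22.7 FPKM in WT and 12.8, 14.7 and 12.7 FPKM in null (-0.90 ± 0.12 (SE), limma adjusted p = 0.00228), and it passed in every fit without a library. None of 24 replication and mitosis genes passed, nor any of 20 p53 target and BCL2 family genes, 20 interferon-induced genes or 8 protein-coding genes of the mitochondrial genome. Ddit4 (REDD1), an inhibitor of mTORC1, measured 14.5, 8.77 and 7.76 FPKM in WT and 4.28, 5.22 and 2.78 FPKM in null (-1.31 ± 0.23 (SE), limma adjusted p = 0.00797), with the block only. It was the only 1 of 16 mTORC1 genes to pass, and its groups did not overlap.

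In metabolism, Slc2a1 (GLUT1), a glucose transporter, fell among 22 glycolysis genes, at 12.4, 13.2 and 10.5 FPKM in WT and 7.23, 8.02 and 7.25 FPKM in null (-0.67 ± 0.09 (SE), limma adjusted p = 0.0029). Of 75 nuclear oxidative phosphorylation genes 1 rose, Atp5g1, and the list median was 0.18. Of 80 cytosolic ribosomal protein genes 2 rose, Rpl38 and Rpl3l, with the block only, and the median was 0.13. Asns, asparagine synthetase, and Mthfd1l, a mitochondrial folate enzyme, rose among 20 ATF4 target genes, by 0.67 and 0.73. Of 19 heat shock genes Hspb3, a small heat shock protein of muscle, rose alone, at 1.87, 1.24 and 2.29 FPKM in WT and 6.04, 6.18 and 6.5 FPKM in null (1.78 ± 0.24 (SE), limma adjusted p = 0.00242), and by 1.83 in KIT+ cells.

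**Figure D4:**
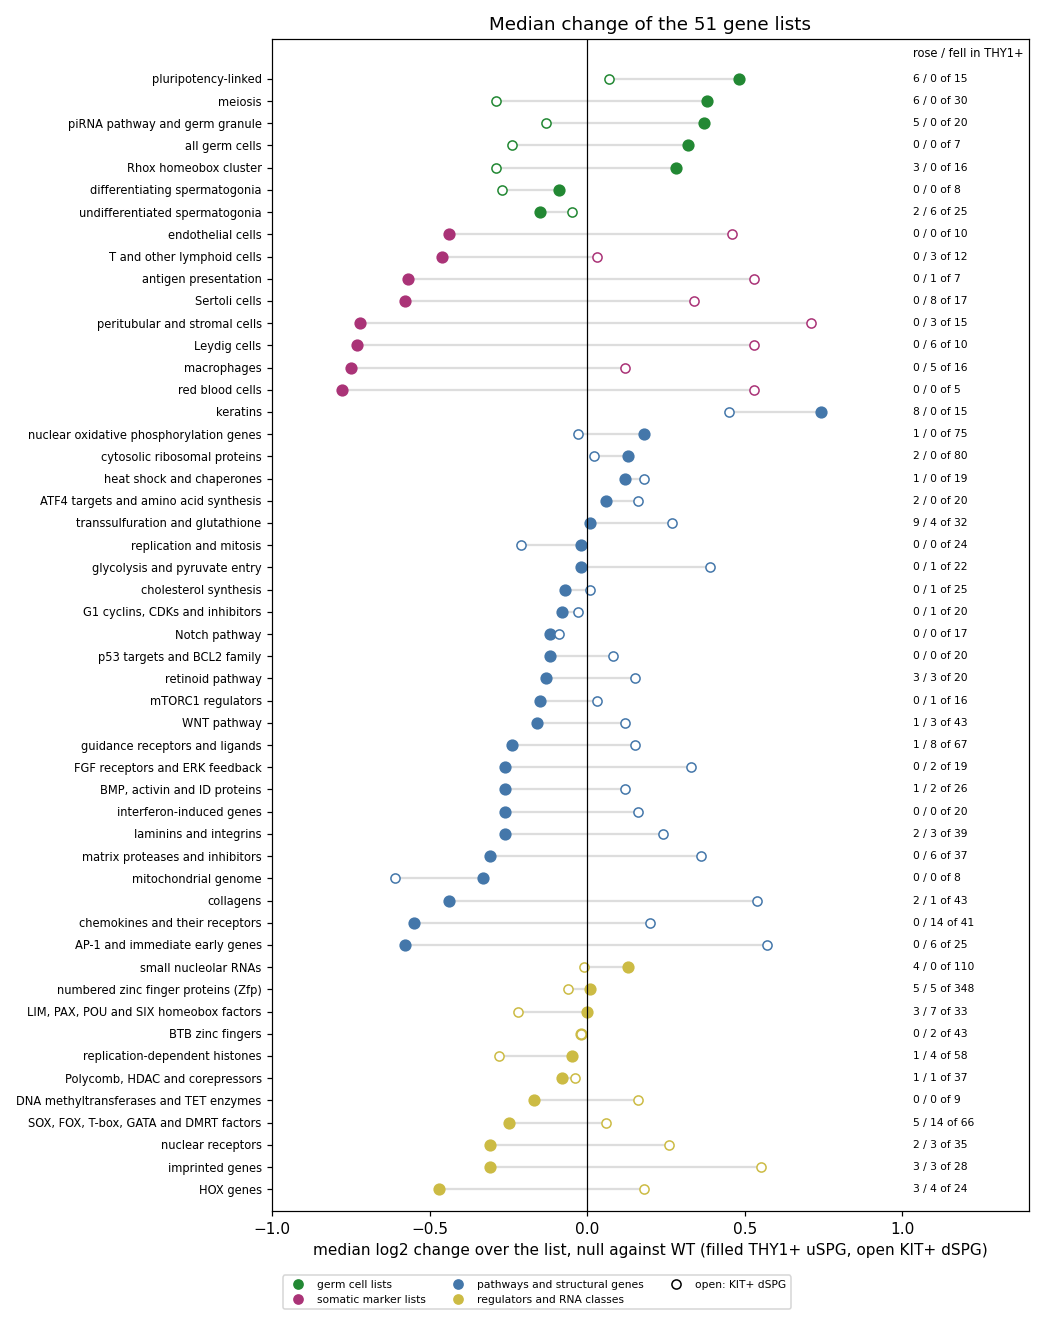
Median log2 change of each of the 51 gene lists, null against WT, in THY1+ uSPG (filled) and KIT+ dSPG (open), coloured by class, with the numbers of genes that rose and fell in THY1+ cells at the right. The 8 somatic lists all lie below 0 in THY1+ cells and above 0 in KIT+ cells, and keratins lie highest at this pseudocount of 0.1.

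Of 28 imprinted genes, expressed from the copy of 1 parent, 3 rose and 3 fell. The change was negative for 21 and positive for 7, with a median of -0.31. In KIT+ cells the median was 0.55, with 8 genes that rose and 0 that fell. Snrpn, whose transcript hosts small nucleolar RNAs (snoRNAs) of the Prader-Willi region, measured 6.2, 5.19 and 8.35 FPKM in WT and 19.3, 16.8 and 21.1 FPKM in null (1.54 ± 0.10 (SE), limma adjusted p = 7.68e-05). Phlda2, a growth-restricting gene of the placenta, measured 3.82, 2.46 and 2.49 FPKM in WT and 10, 6.76 and 10.2 FPKM in null (1.6 ± 0.13 (SE), limma adjusted p = 2.27e-04). Both were raised in every null library, while Plagl1, Meg3 and Zim1 fell with the block only and had KIT+ changes of 0.77, 0.70 and 0.79. Slc22a18, which lies near Phlda2, rose with the block only.

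Of 110 snoRNAs, 4 rose, a share called of 3.6%, below the background of 8.85%. In the fits without a THY1+ library 1 to 7 rose. Of the 4, the 2 with the largest changes lay inside Snrpn (GRCm38, chromosome 7, 59974149 to 60005064, minus strand). Snord64 measured 7.93, 18.4 and 7.14 FPKM in WT and 79.5, 44.4 and 42.6 FPKM in null (2.38 ± 0.41 (SE), limma adjusted p = 0.00708) and Snord107 2.85, 4.75 and 5.47 FPKM in WT and 14.7, 16.6 and 17.8 FPKM in null (1.93 ± 0.50 (SE), limma adjusted p = 0.0293), the latter a call lost without the block and in every fit that left out a THY1+ library. All null values exceeded all WT values for both. Reads of an overlapping Snrpn transcript could be counted to either RNA, and libraries of this kind capture RNAs this short only in part. Their sequences show the paired boxes of the C/D class, in capitals the C box TGATGA and the D box CTGA, read from GRCm38 on the minus strand at chr7:59978808-59978874 (Snord64) and chr7:59980876-59980945 (Snord107).
Snord64: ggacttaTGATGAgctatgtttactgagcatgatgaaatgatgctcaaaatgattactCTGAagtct
Snord107: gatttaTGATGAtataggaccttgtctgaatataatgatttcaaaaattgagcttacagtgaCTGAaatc
Of 58 replication-dependent histone genes, 1 rose (Hist1h4f) and 4 fell (Hist1h4m, Hist2h3b, Hist2h4 and Hist1h2bl), and near-identical copies make each of these uncertain. The share called was 8.6%, near the background of 8.85%.

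Genes that changed tended to have a neighbour that changed the same way. Of the 743 protein-coding genes that rose, 194 (26.1%) had an adjacent protein-coding gene, on either side among those tested, that also rose, against 8.64% of all 16349 tested, and of the 774 that fell, 160 (20.7%) had such a neighbour, against 9.16%. Runs of 3 or more numbered 21, of which 14 rose. The runs named here were chosen after their values were seen. The longest held 7 F-box genes of the Fbxw family on chromosome 9 (109139447 to 109746089), among them Fbxw13, at 0.834, 0.308 and 0.569 FPKM in WT and 2.72, 1.99 and 1.82 FPKM in null (1.82 ± 0.21 (SE)), and these are close copies whose reads may be shared. Slx1b, Bola2 and Coro1a on chromosome 7 overlap or abut: Coro1a, an actin-binding coronin of blood cells, measured 14.1, 18.4 and 12.4 FPKM in WT and 39.6, 51.9 and 39.3 FPKM in null (1.54 ± 0.09 (SE), limma adjusted p = 5.25e-05) and rose in KIT+ cells by 2.2. Magea6, Magea3 and Magea8, cancer/testis antigens on the X chromosome, formed another run. The X chromosome held 68 genes that rose and 38 that fell among 982 tested. Over all 22374 genes tested, 4.36% rose and 4.49% fell.

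Within 10 Mb on each side of Zbtb16 on chromosome 9, 13 of 243 genes rose and 20 fell, 13.6% against 8.85% overall. Mpzl2, a cell adhesion protein of epithelia, measured 3.59, 3.38 and 2.91 FPKM in WT and 1.15, 1.31 and 1.36 FPKM in null (-1.3 ± 0.18 (SE), limma adjusted p = 0.00269), and fell in KIT+ cells by 1.35 on the log2 scale. Crtam, an immunoglobulin-like adhesion protein, measured 2.36, 2.3 and 2.33 FPKM in WT and 4.94, 4.27 and 5.1 FPKM in null (1.0 ± 0.11 (SE), limma adjusted p = 0.00123), with every null value above every WT value. Tex12, given with the meiotic genes, also lies in this window. So does Cyp11a1, a steroid-synthesis enzyme of Leydig cells, at 17.6, 25 and 15.1 FPKM in WT and 8.44, 16.4 and 8.1 FPKM in null (-0.85 ± 0.22 (SE), limma adjusted p = 0.0273). Its groups overlapped, and the call was lost without the block and held in 1 of the 6 fits without a THY1+ library.

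Abundant genes changed little. None of the 10 most abundant genes in WT THY1+ uSPG passed. They were the small RNAs Rn7sk, Rmrp, Rpph1, Rnu3a, Gm26377 and Gm23935, Ccdc107, which overlaps Rmrp, and the mitochondrial mt-Rnr2, mt-Co1 and mt-Nd1. Together the 10 highest genes of a library took 36.2% to 42.9% of its summed FPKM. Of the 340 genes at 100 FPKM or more in WT, 2 rose, Nxf2 and the small RNA Gm25395. Nxf2, an mRNA export factor of germ cells encoded on the X chromosome, measured 111, 105 and 137 FPKM in WT and 176, 159 and 203 FPKM in null (0.61 ± 0.07 (SE), limma adjusted p = 0.00118). The 6 that fell were Apoe, B2m, Sepp1, Lgals1, Vim and Mrc1. Apoe, a lipid carrier made by macrophages and other somatic cells, measured 380.2, 375 and 353 FPKM in WT and 194, 289 and 169 FPKM in null (-0.80 ± 0.15 (SE), limma adjusted p = 0.0101), with null replicate 2 nearest to WT. Below that level Ncbp1, a subunit of the nuclear cap-binding complex, rose from a mean of 53.5 to 96 FPKM (0.84 ± 0.05 (SE), limma adjusted p = 4.80e-05), with no overlap.

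The largest changes were ranked among calls that reached 1 FPKM and whose groups did not overlap. The 10 largest increases were Cutal, Krt18, D030018L15Rik, Rxrg, Syt12, A930001C03Rik, Slc36a3os, Ap3b2, Slc5a4b and Snord64, from 3.52 to 2.38 on the log2 scale. Cutal measured 0.177, 0.286 and 0.405 FPKM in WT and 4.42, 4.06 and 4.27 FPKM in null, and Syt12, a synaptotagmin of vesicle traffic, 0.498, 0.571 and 0.547 FPKM in WT and 4.18, 5.13 and 3.96 FPKM in null. For both, the lowest null value lay far above the highest WT value, but separate groups were a condition of the ranking. A930001C03Rik overlaps Syt12, and Slc36a3os was at or under 3 estimated reads in each WT library, so its level was at least 5.55-fold higher in null, taken against 3 reads per library. Slc5a4b has a close copy, Slc5a4a, beside it. All 10 passed without the block and in every fit without a THY1+ library, and 9 of them, all but Slc36a3os, rose in KIT+ cells as well.

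The 10 largest decreases, ranked under the same conditions, were Gjb2, Chrna4, 2210011C24Rik, Tox3, Oit1, Cartpt, Gm16267, Rln3, Trdv4 and Gm25854, from -2.59 to -1.73. Chrna4, a subunit of the nicotinic acetylcholine receptor, measured 8.0, 11.3 and 8.06 FPKM in WT and 1.47, 2.25 and 1.27 FPKM in null (-2.4 ± 0.17 (SE), limma adjusted p = 1.33e-04). Tox3, an HMG-box cofactor, measured 2.32, 2.01 and 2.02 FPKM in WT and 0.645, 0.454 and 0.459 FPKM in null (-1.85 ± 0.14 (SE), limma adjusted p = 1.42e-04). Both were far under the WT range in all null libraries, though here too the ranking required separate groups. Gjb2, Chrna4, Tox3 and Oit1 fell in KIT+ cells too, whereas Gm25854 was lost without the block.

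**Figure D5:**
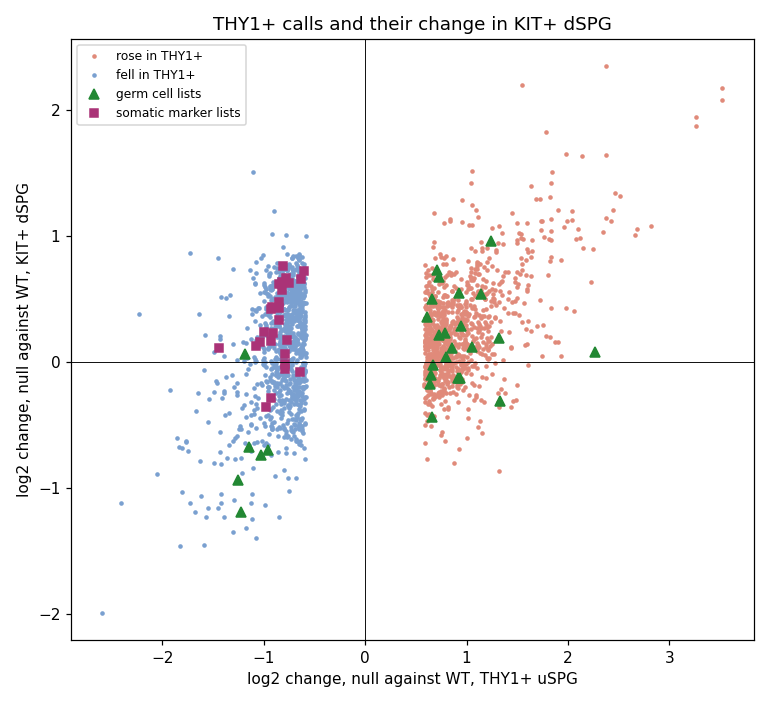
Log2 change, null against WT, in THY1+ uSPG (horizontal axis) and KIT+ dSPG (vertical axis) for the genes called in THY1+ uSPG, coloured by their direction there, with triangles for germ cell list genes and squares for somatic marker genes. Most of the 976 genes that rose lie above 0 in KIT+ cells (75.2%), and 38.6% of the 1004 genes that fell lie below 0 there.

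The KIT+ libraries were prepared in the same study from mice of the same genotypes, so the fractions were set side by side gene by gene. In KIT+ dSPG 351 genes rose and 162 fell (1.57% and 0.724% of those tested). Of the genes that rose in THY1+ uSPG 734 (75.2%) had a positive KIT+ change, against 50.9% of all genes, and 111 were called in both fractions. Of the genes that fell 388 (38.6%) had a negative KIT+ change, against 49.0% of all genes, 38 were called in both, and 32 fell in THY1+ and rose in KIT+ cells. Among the latter were Fcer1g, Vim, Plagl1, Meg3 and Zfp423. The difference between fractions itself, the genotype by fraction interaction, passed for 2756 genes (12.3%) with the block. It passed for 364 of the genes that rose and 582 of those that fell with a sign opposite to the THY1+ change. Without the block it passed for only 7 genes. Leaving out a library moved the 2756 by over 1.5 times in 8 of 12 cases: to 1641 without WT replicate 1, 1084, 1545 and 231 without null replicate 1, 2 and 3 of THY1+ cells, 791 and 1451 without WT replicate 1 and 2 of KIT+ cells, and 68 and 112 without null replicate 2 and 3 of KIT+ cells.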

How the data were processed

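RNA was measured in THY1+ and KIT+ cells by ribosomal RNA-depleted, stranded single-read sequencing. The deposited values are FPKM per gene, made by the authors from Novoalign alignments to mm10 with Ensembl genes (per the methods and the submitters' processing notes, which also name DESeq2). Whether counting used strand is not given in the sources used here. FPKM of low genes came out as whole reads (within 0.1 read) for 85.2% to 86.3% of values, from which depth was estimated at 27.5 to 31.29 M reads (M, 1e6) per THY1+ library.

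Analysis used limma 3.58.1 in R 4.3.3 on log2(FPKM + 0.1) for 22374 of 23177 genes with a mean of at least 0.1 FPKM over the 12 Zbtb16 libraries. All 4 groups were fitted together with the replicate number as a block, with trended, robust variance and Benjamini-Hochberg adjustment, and the fit was tested on simulated data. The pairing comes from the labels, in which libraries of 1 number share an identifier, and the deviations of null and WT THY1+ libraries of the same number from their group means correlated at 0.133 to 0.475 in the 3 pairs. Over all 18 same-numbered pairs the correlation was -0.028 to 0.52. The study describes its RNA-seq replicates as biological and independent of each other, with the testes of 3 mice in each isolation; the labels do not tie a library to an isolation.

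Genes were named by rule: Zbtb16, Thy1 and Kit, the heads of each list and up to 4 called members in each direction, the 10 largest and the 10 most abundant calls in each direction, the 10 most abundant genes, and calls within 10 Mb of Zbtb16. The 10 largest calls were taken from those with a mean of 1 FPKM in the higher group and no overlap of the groups. Others are said to be chosen afterwards, or were named as further members of a count (Fcer1g, Sox2, Pou5f1, Zfp423, Krt17, Krt28). The comparison, the lists and the rule were chosen with earlier results of these data known. Alternatives were no block, pseudocounts of 1 and 0.01, other filters, median centring, quantile normalization, untrended variance, the 6 THY1+ libraries alone, and each library left out. Gene positions, sequences and annotation came from GRCm38 (GENCODE, RefSeq). A few genes that the rule names are not reported here. Files of the other experiments were not used here.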

Additional observations from a re-analysis of the deposited data

Results flagged for a closer look

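For 86 of the 180 genes named above, the KIT+ change less the THY1+ change passed the test of the difference itself (limma, genotype by fraction interaction, adjusted p of at most 0.05 and 1.5-fold). Without the replicate block 7 of the 22374 genes passed that test. Values are log2 differences, negative where the KIT+ change was the lower one. Groups of 3 libraries are too small for a test of single outlying libraries.

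Among germ cell genes the difference was -2.18 for Dppa3, -1.13 for Rhox10, -1.11 for Magea3, -1.1 for Tex12, -1.05 for Spata22, -1.04 for Hormad1, -0.92 for Piwil1, -0.84 for Magea8, -0.81 for Sycp3, -0.76 for both Syce3 and Stra8, -0.75 for both Nxf2 and Morc1, -0.74 for Piwil4, -0.68 for Rhox1, -0.67 for Dazl, -0.61 for Ddx4 and -0.6 for Dppa4. Of the uSPG markers, Shisa6 stood at 1.26. Of these genes, Stra8 is the one whose KIT+ change was itself a call that fell.

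Most of the largest increases were smaller in KIT+ cells: Syt12 differed by -1.73, Slc36a3os by -1.65, A930001C03Rik by -1.63, Krt23 by -1.62, Krt18 by -1.43, D030018L15Rik by -1.39, Cutal by -1.35, Rxrg by -1.32, Slc5a4b by -1.24 and Ap3b2 by -1.12. Smaller differences of this sign were -1.1 for Rpl3l, -1.07 for Tbx4, -1.01 for Phlda2, -0.96 for Ncbp1, -0.94 for Cth, -0.87 for both Sema3e and Crtam, -0.82 for Bola2, -0.76 for Snrpn, -0.71 for Rnu3a, -0.7 for Lama3 and -0.65 for Gm25395. Coro1a went the other way, at 0.66.

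Somatic markers had KIT+ changes above their THY1+ changes. The difference was 1.58 for Igf1, 1.55 for Il7r, 1.47 for Cyp11a1, 1.38 for Fcer1g, 1.36 for Cyp17a1, 1.32 for Acta2, 1.21 for Cldn11, 0.94 for Cd8a, 0.86 for Cd68 and 0.78 for Csf1r. The abundant genes Sepp1 (1.63), Vim (1.5), Apoe (1.38), B2m (1.25) and Lgals1 (1.05) had differences of the same sign, as had the chemokines Ccl24 (1.8) and Ccl2 (1.59).

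Among signalling, immediate early and metabolic genes the difference was 1.52 for Fos, 1.5 for Nrp1, 1.46 for Dhrs3, 1.45 for Ddit4, 1.43 for Nrp2, 1.42 for Etv1, 1.4 for Jund, 1.3 for Nr4a1, 1.27 for both Wnt10b and Fosb, 1.26 for Aldh1a1, 1.19 for Nr4a2, 1.08 for Fgfr1, 0.98 for Id2, 0.76 for Gpx1 and 0.61 for Ccnd1. It was 1.55, 1.47 and 1.45 for the imprinted Plagl1, Zim1 and Meg3, and 1.41, 1.02, 0.98 and 0.83 for Zfp423, Zbtb4, Hist2h3b and Hist2h4. Of the largest decreases, Gm25854 stood at 2.6, Chrna4 at 1.29, Tox3 at 1.25 and Rln3 at 1.14. Chrna4 and Tox3 fell in both fractions.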

How the results depend on the processing

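Counts moved with the processing. None of the 158 named genes that passed changed sign under the alternatives tried. These genes were chosen for passing and the alternatives refit the same values, so this is no independent check of direction. Of the 22 named genes that did not pass, 9, Kit, Ret and Thy1 among them, changed sign under at least 1 alternative. The 1980 calls (976 rose, 1004 fell) became 890 (607 and 283) without the replicate block and 669 (459 and 210) in the 6 THY1+ libraries alone with no replicate block. They became 834 (412 and 422) at a pseudocount of 1, and 1214 (515 that rose) when a mean of 1 FPKM was required. Leaving out 1 of the 12 libraries gave 939 to 2010 calls in all, 572 to 991 that rose and 300 to 1031 that fell. The interaction count of 2756 became 7 without the block and ranged from 68 to 3435 without 1 library. The cause was not tested in these cases beyond the smaller number of genes or libraries. Of the named genes that were calls, 62 were lost without the block, 42 at a pseudocount of 1, 18 at a pseudocount of 0.01, 16 without the trended robust variance, 7 under median centring and 8 under quantile normalization. The block moved 34 of 102 list counts by over 1.5 times. Median centring turned 4 list medians that were within 0.05 of 0 (replication, glycolysis, BTB and histone genes).

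With 3 libraries a group, the low whole-read depth of genes under 1 FPKM limits their precision. Only FPKM were used, so no count model was fitted.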
